A study of Mus musculus with 6 samples.

Results

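The genes described here are 3 DNA methyltransferases (Dnmt1, Dnmt3a and Dnmt3b), 3 TET dioxygenases (Tet1, Tet2 and Tet3) and 3 methyl-CpG-binding domain genes (Mbd1, Mbd2 and Mbd3), chosen by symbol as 9 of the 23282 rows of each count file. They were measured by QuantSeq, which reads transcripts from a tag at their 3′ end, in hippocampus taken from C57BL/6 mice aged 16 weeks. Libraries from animals with the genotype label PHF2 t/g (3 libraries) were compared with libraries from wild-type (WT) animals (3 libraries). PHF2 is a histone demethylase, and the label is read as a Phf2 transgene. The promoter of the transgene, the cells it is active in and the number of founder lines are not given in the labels. No label says that each library came from its own animal, so p-values refer to the spread between these libraries, which may be technical. Phf2 itself stood at 35.5, 37.3 and 43.1 CPM (tag counts scaled to a common library size) in PHF2 t/g replicates 1 to 3, against 38.3, 35.6 and 39.3 CPM in WT replicates 1 to 3. Its fold change of 0.03 on the log2 scale (SE 0.11, interval −0.20 to 0.27, edgeR adjusted p = 0.929) gives no check of the labels. Tags cannot show a construct that lacks the gene's own 3′ end, and the labels do not say whether this construct keeps it. Why Phf2 did not differ was not tested.

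DNA methylation in mammals sits mainly on the cytosine of CpG dinucleotides. Dnmt1 copies the mark onto the new strand after replication, and Dnmt3a and Dnmt3b place it on unmethylated DNA. The TET enzymes oxidise methylcytosine, which leads to its removal through base excision repair, and the MBD proteins belong to a family that reads methylated CpGs and recruits repressor complexes. In adult brain, Dnmt1 and Dnmt3a are expressed in neurons that no longer divide, and TET-made hydroxymethylcytosine is abundant there.

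The genes lie on 7 chromosomes of GRCm38. Promoter windows of 300 bases (250 before and 50 after an annotated start, from RefSeq, GRCm38.p6) were matched by symbol for 7 of the 9 genes, as 11 windows, none of them for Mbd1 or Mbd2. Of these windows 6 had a GC content of at least 55% and a CpG observed-to-expected ratio of at least 0.65, against 28.1% of all 32851 windows. The 6 came from Dnmt1, Dnmt3a, Dnmt3b, Tet2 and Mbd3. Those of Dnmt3a overlap each other (3806730 to 3807029 and 3806910 to 3807209), so the 6 are not separate genes. The Tet2 window stood out, with 57 CpGs, a count that 0.152% of all windows reach; the median window had 7. Below are the 250 bases before an annotated start of Tet2, the gene whose level changed, of Tet3, of Dnmt3a and of Dnmt1. Tet3 is the TET gene of similar level that did not pass the test, and the windows of Dnmt3a include CpG-rich ones. For Dnmt1 the most upstream of 3 starts is shown, as an example poor in CpG. The Tet2, Tet3 and Dnmt3a stretches lie inside the RefSeq spans of their genes, whose 5′ ends are at 133545136, 83457208 and 3801559. Only the Dnmt1 stretch lies outside its gene's span, so unlike starts are set side by side. The windows of the other 2 Dnmt1 starts held 12 and 33 CpGs, so Dnmt1 also has a CpG-rich start. All are printed 5′ to 3′ along the gene's strand, with CpG dinucleotides in capitals.
Tet2 (chr3:133544391-133544640, - strand): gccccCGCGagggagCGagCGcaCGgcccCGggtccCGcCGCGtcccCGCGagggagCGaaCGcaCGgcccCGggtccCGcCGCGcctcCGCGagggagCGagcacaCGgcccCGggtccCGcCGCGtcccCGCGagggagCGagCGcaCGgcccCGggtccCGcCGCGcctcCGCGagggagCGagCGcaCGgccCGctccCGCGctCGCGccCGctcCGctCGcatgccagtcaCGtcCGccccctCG
Tet3 (chr6:83441679-83441928, - strand): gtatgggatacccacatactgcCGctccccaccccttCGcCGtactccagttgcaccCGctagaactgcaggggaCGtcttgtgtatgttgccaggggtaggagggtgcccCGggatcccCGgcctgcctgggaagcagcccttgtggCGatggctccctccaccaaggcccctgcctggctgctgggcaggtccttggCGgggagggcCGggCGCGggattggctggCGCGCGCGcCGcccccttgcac
Dnmt3a (chr12:3806730-3806979, + strand): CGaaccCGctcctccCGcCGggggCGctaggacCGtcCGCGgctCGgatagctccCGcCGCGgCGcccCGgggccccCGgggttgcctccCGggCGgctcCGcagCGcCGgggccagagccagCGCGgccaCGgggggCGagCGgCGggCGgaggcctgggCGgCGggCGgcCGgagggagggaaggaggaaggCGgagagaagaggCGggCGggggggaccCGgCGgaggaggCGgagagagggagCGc
Dnmt1 (chr9:20959889-20960138, - strand): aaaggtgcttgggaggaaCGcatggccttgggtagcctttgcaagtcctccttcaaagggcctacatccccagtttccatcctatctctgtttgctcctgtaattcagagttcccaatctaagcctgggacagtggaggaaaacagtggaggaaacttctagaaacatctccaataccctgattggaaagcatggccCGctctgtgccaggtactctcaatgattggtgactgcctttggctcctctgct
These stretches held 51 CpGs in Tet2, 17 in Tet3, 38 in Dnmt3a and 2 in Dnmt1. In the Tet2 stretch the 20 bases caCGgcccCGggtccCGcCG occurred 4 times, and 0.18% of all windows held any run of 20 bases as often. The motif searched was CG, which reads the same on both strands, and its count is a description of these letters, since no methylation was measured in this series.

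The libraries held 5512171 to 8844718 counts, of which 1150 to 2150 (0.02% to 0.025%) fell on the 9 genes. Total counts overlapped between the groups, but the TMM factors did not (0.955 to 0.978 in WT, 1.03 to 1.05 in PHF2 t/g), and neither did the share of the ribosomal RNA row Rn45s (8.2% to 9.89% in WT, 7.05% to 7.61% in PHF2 t/g). On the first axis of multidimensional scaling, WT replicate 2 was far from the other libraries. On that axis PHF2 t/g replicate 1 (−0.313) lay between replicates 2 (−0.255) and 3 (−0.533) of its group. It stood apart in its level of the choroid plexus gene Ttr. Neuronal markers summed to 4590 to 5050 CPM in all libraries and CA pyramidal markers to 275 to 421 CPM, and both sums overlapped between the groups. In each of these lists 1 of 6 tested genes rose, Gad2, which makes GABA (82.9 against 57.7 CPM in WT, edgeR adjusted p = 0.00493), and Wfs1 (50.3 against 35.9 CPM in WT, edgeR adjusted p = 0.0191). Single genes fell in the newborn neuron list (Sox4, 1 of 5 tested) and the oligodendrocyte list (Mag, 1 of 5 tested), and both list sums overlapped between the groups. The other 4 oligodendrocyte markers lay above 0 without passing, Mbp and Mog among them with groups that did not overlap. Of the newborn neuron markers 2 of 5 lay above 0, among them Sox11 (77.6 against 63.2 CPM in WT, edgeR adjusted p = 0.107). Dentate granule cell markers were low and uneven, at 4.02 to 19.7 CPM in PHF2 t/g against 6.66 to 19.6 CPM in WT, the lowest of each group being replicate 3, and Dsp, 1 of these 4 markers, had 0 counts in WT replicate 3.

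A tag count depends little on the length of the transcript, so the levels of these genes are set side by side in CPM. It does depend on which 3′ ends were counted, and the annotation used is not given. In GENCODE M21 coding 3′ ends spread over 43219 bases in Mbd2, 38381 in Dnmt3a, 8778 in Tet1 and 5669 in Tet3. They spread over 1498 bases or fewer in the other genes. The order below is therefore approximate. Dnmt3a (mean of 69 CPM over the 6 libraries) and Dnmt1 (59.3 CPM) were the most abundant, and Dnmt3a was the higher in 5 of 6 libraries, with overlapping ranges. Mbd3 followed at 33.5 CPM, below every Dnmt1 value and above every Tet3 value. Tet3 (18.9 CPM) and Tet2 (16.8 CPM) overlapped, and each was the higher in 3 of 6 libraries. Mbd2 (12.9 CPM) lay below Tet2, Mbd1 (8.41 CPM) below Mbd2 and Tet1 (4.8 CPM) below Mbd1 in all 6 libraries taken 1 by 1, although the ranges of these neighbours overlapped across libraries. Dnmt3b was at the edge of detection at 0.624 CPM, with 3 to 8 counts a library. The plot of levels by library shows this order and the spread of each gene.

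**Figure D1:**
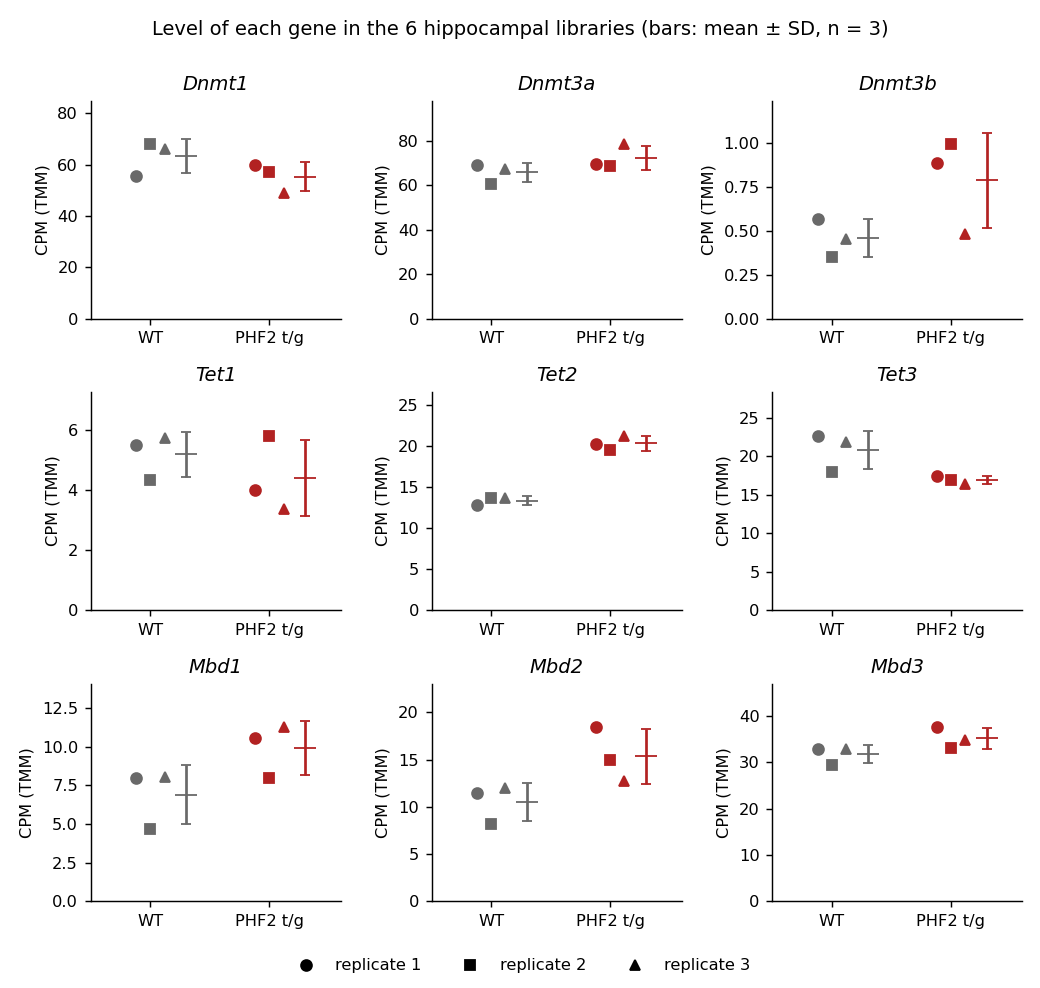
Level (CPM, scaled by TMM, y axis from 0) of each of the 9 genes in the WT (grey) and PHF2 t/g (red) libraries, with 1 point per library, its shape giving the replicate number, and bars for the mean ± SD (n = 3). Tet2 sits between 19.5 and 21.2 CPM in PHF2 t/g and between 12.8 and 13.6 CPM in WT, while Dnmt1, Dnmt3a, Tet1 and Mbd1 overlap between the groups.

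Of the 9 genes 8 passed the low-count filter and were tested between PHF2 t/g and WT. Tet2 rose, 0 fell and 7 did not pass the test (edgeR's quasi-likelihood test, Benjamini-Hochberg adjusted p under 0.05 over 12831 genes). Over all 12831 tested genes 0.779% were called higher and 1.49% lower, 2.27% in all. With 1 called gene among 8, no share of the group can be read against that background. Of these calls over all genes 34.4% were higher ones with TMM, 74.7% with library size alone and 18.5% with DESeq2. Of the 8 genes 5 lay above 0 and 3 (Dnmt1, Tet1 and Tet3) below, with the same signs under each of the 16 alternatives. Their median log2 fold change was 0.14, against 0.02 for all tested genes. In 4 of the 8 the groups did not overlap (Tet2, Tet3, Mbd2 and Mbd3), against 20.6% of all tested genes. In 3 of the 8 (Tet2, Mbd2 and Mbd3) the groups did not overlap and PHF2 t/g was higher, against 10.1% of all tested genes. An unadjusted p under 0.05 was reached by 3 of the 8 (Tet2, Mbd2 and Mbd1) and by 14.7% of all tested genes.

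**Figure D2:**
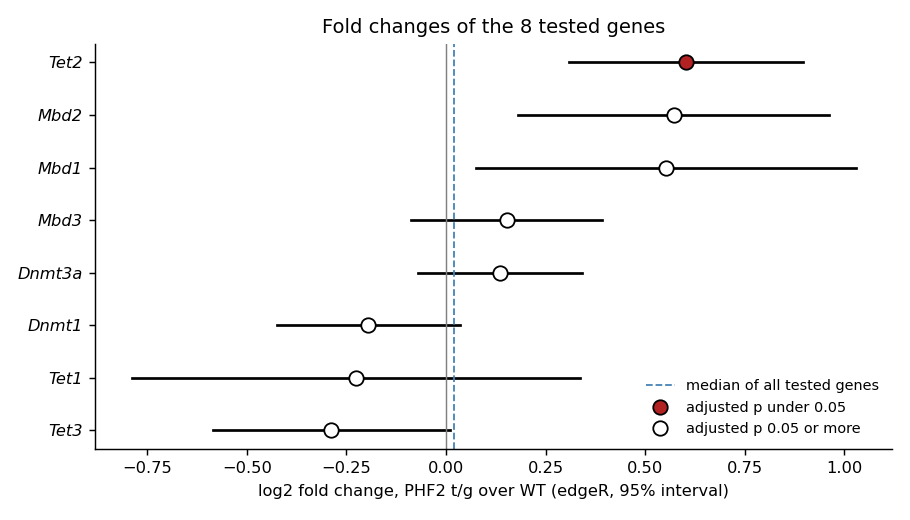
Log2 fold change of PHF2 t/g over WT (x axis) for the 8 tested genes, with 95% intervals from edgeR; red marks an adjusted p under 0.05, and the dashed line is the median of all tested genes (0.02). Tet2 alone is red, at 0.60, and the intervals of Mbd2 and Mbd1 also lie above 0.

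Among the TET dioxygenases, Tet2 (chromosome 3, 133463677 to 133545136, GRCm38) stood at 20.2, 19.5 and 21.2 CPM in PHF2 t/g replicates 1 to 3, against 12.8, 13.6 and 13.6 CPM in WT replicates 1 to 3. Every PHF2 t/g library lay above every WT library. The level rose 1.52-fold, from 13.3 ± 0.503 to 20.3 ± 0.895 CPM (SD, n = 3), a log2 fold change of 0.60 (SE 0.14, 95% interval 0.31 to 0.89, edgeR adjusted p = 0.0289). In raw counts Tet2 had 273 in the WT libraries together and 451 in PHF2 t/g, a scaled ratio of 1.51 with an interval of 1.3 to 1.76 that covers counting error only. The replicates lay closer together than counting alone gives on average. Their coefficient of variation was 4.41% in PHF2 t/g and 3.77% in WT, where means of 150 and 91 counts carry counting errors of 8.16% and 10.5%, so the SD of Tet2 is smaller than its counting error. With 1 library left out, the log2 fold change stayed at 0.56 to 0.63, but the call held only without WT replicate 2 (edgeR adjusted p = 0.0253). It ended without WT replicate 1 (edgeR adjusted p = 0.0721) or WT replicate 3 (0.0655), and without PHF2 t/g replicate 1 (0.178), replicate 2 (0.0995) or replicate 3 (0.123). It also ended, at a log2 fold change of 0.62, without both libraries that stand apart (edgeR adjusted p = 0.107). With library size alone, which leaves out the TMM factors that differ between the groups, the log2 fold change was 0.70 (edgeR adjusted p = 0.014). The median of all tested genes also moved there, from 0.02 to 0.12, and Tet2 lay 0.58 above the median with either scaling. DESeq2 gave an unadjusted p of 0.00234 and no adjusted p for Tet2. Both coding transcripts of Tet2 in GENCODE M21 with a complete 3′ end finish within 160 bases of each other, and no other annotated gene covers the RefSeq 3′ end of Tet2 or of any other of the 9 genes.

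Tet3 (chromosome 6, 83362373 to 83457208) was lower in PHF2 t/g without passing the test. It stood at 17.4, 16.9 and 16.4 CPM across PHF2 t/g, against 22.7, 18 and 21.8 CPM in the WT libraries. Every PHF2 t/g value was below every WT value, but the gap to WT replicate 2 was small against the spread of WT, and the log2 fold change was −0.29 (SE 0.14, 95% interval −0.58 to 0.01, edgeR adjusted p = 0.359). Tet1 (chromosome 10, 62804570 to 62887469), with 21 to 41 counts a library, stood at 4, 5.82 and 3.38 CPM across PHF2 t/g, against 5.52, 4.35 and 5.75 CPM in the WT libraries. These ranges overlapped, and the 95% interval of its log2 fold change, −0.79 to 0.34, leaves room for changes in either direction larger than those of Dnmt3a or Mbd3.

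The makeup of the TET counts differed between the groups more than their sum. Tet2 made up 48.5%, 46.1% and 51.8% of the TET counts in PHF2 t/g replicates 1 to 3 and 31.2%, 37.9% and 33.1% in WT. Tet3 made up 50% to 55.3% in WT and 40% to 41.9% in PHF2 t/g. In counts, Tet2 exceeded Tet3 in all 3 PHF2 t/g libraries (ratios of 1.16, 1.15 and 1.29) and lay below it in all 3 WT libraries (0.563, 0.758 and 0.625). A ratio of genes within a library is free of the scaling; it was looked at after the values were seen and is given with no test. The summed TET level was 41.6 ± 0.574 CPM in PHF2 t/g, against 39.3 ± 2.94 CPM in WT (SD, n = 3), and the libraries overlapped.

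**Figure D3:**
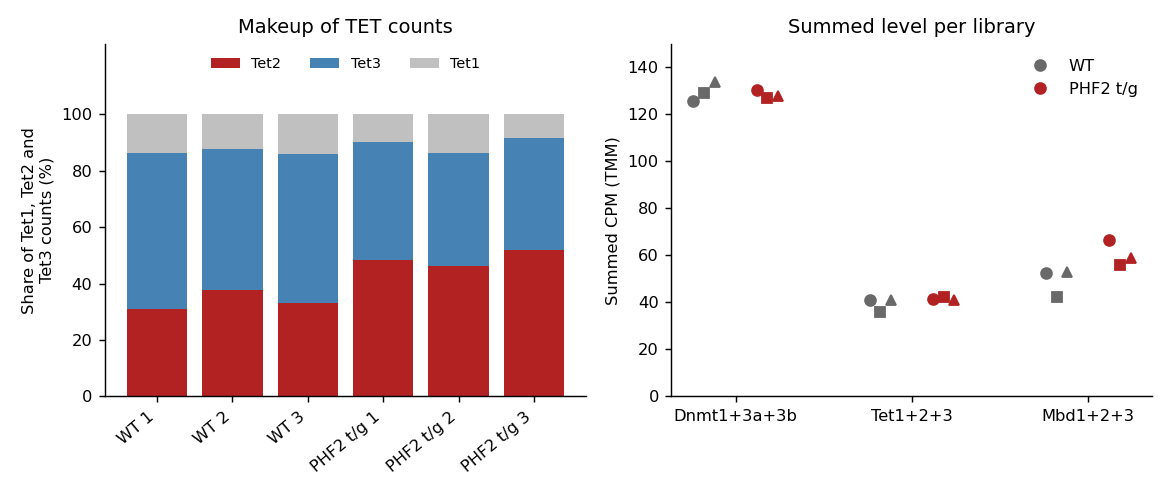
Left: share of Tet2 (red), Tet3 (blue) and Tet1 (grey) in the summed TET counts of each library (y axis, percent). Right: summed level of the Dnmt, Tet and Mbd genes (CPM, scaled by TMM), with 1 point per library. The Tet2 share is 46.1% or more in each PHF2 t/g library and 37.9% or less in each WT library, while the summed TET and Dnmt levels overlap.

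In bulk tissue, a change in the number of cells of a type and a change in RNA per cell cannot be told apart. The summed levels of marker lists for neighbouring tissue, meninges and vessels were also higher in PHF2 t/g, with libraries that did not overlap, although not every marker in them was higher. Striatal markers summed to 682 to 788 CPM in PHF2 t/g and 518 to 595 CPM in WT (3 of 6 tested rose: Penk, Tac1 and Rgs9), hypothalamic markers to 51.5 to 53.6 against 4.76 to 5.4 CPM (3 of 4 rose: Avp, Oxt and Trh), leptomeningeal fibroblast markers to 135 to 147 against 62.7 to 86.2 CPM (1 of 4 rose: Mgp) and endothelial and mural markers to 109 to 111 against 84 to 105 CPM (2 of 6 rose: Vwf and Flt1). Choroid plexus markers summed to 156 to 551 against 138 to 155 CPM, the highest being PHF2 t/g replicate 1, and 0 of 3 tested passed. Ttr was high in that library only (292 CPM), at 3.69 and 1.29 CPM in PHF2 t/g replicates 2 and 3, against 2.27 to 4.47 CPM in WT. In those 2 replicates most of the sum was Enpp2 (149 and 145 CPM, against 132 to 147 CPM in WT). Clic6 did not overlap between the groups (10.1 against 2.87 CPM in WT, edgeR adjusted p = 0.0614). Of the hypothalamic markers, Avp had 0 counts in WT replicate 3 and Oxt in WT replicate 1. Of the endothelial and mural markers 3 of 6 lay below 0, among them Cldn5 at 11.7 CPM in PHF2 t/g, against 17.9 CPM in WT (log2 fold change −0.59, edgeR adjusted p = 0.0791). Adora2a of the striatal list (−0.33, edgeR adjusted p = 0.169) and Dcn of the leptomeningeal list (−0.34, edgeR adjusted p = 0.387) also lay below 0. Microglial markers overlapped at 237 to 260 against 237 to 314 CPM, with 0 of 5 past the test, and blood cell markers overlapped at 113 to 180 against 43 to 148 CPM, with 0 of 4. The part of these markers in the Tet2 difference was not tested.

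Among the methyl-CpG-binding domain genes, Mbd2 (chromosome 18, 70568225 to 70629134), a methyl-CpG reader that forms a NuRD repressor complex, stood at 18.4, 14.9 and 12.7 CPM across PHF2 t/g, against 11.4, 8.22 and 12 CPM in the WT libraries. The groups did not overlap, with PHF2 t/g replicate 3 just above WT replicate 3. The mean was 15.4 ± 2.89 against 10.5 ± 2.02 CPM (SD, n = 3), a log2 fold change of 0.57 (SE 0.19, edgeR adjusted p = 0.124) that did not pass the test. Its adjusted p was 0.0426 without the low-count filter. Without the 2 libraries that stand apart, PHF2 t/g replicate 1 and WT replicate 2, the log2 fold change was 0.24. These held the highest PHF2 t/g value and the lowest WT value of Mbd2, so leaving them out had to shrink it. That fit was added after the data were seen, and no conclusion is drawn from it. Mbd1 (chromosome 18, 74267605 to 74282737) is a reader that can also bind unmethylated CpG through a CXXC domain. Mbd1 stood at 10.5, 7.95 and 11.3 CPM across PHF2 t/g, against 7.99, 4.7 and 8.02 CPM in the WT libraries, with a log2 fold change of 0.55 (SE 0.23, edgeR adjusted p = 0.252). WT replicate 2 was lowest and the groups overlapped narrowly. The log2 fold change of Mbd1 was 0.31 without WT replicate 2 and 0.25 without both libraries.

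Mbd3 (chromosome 10, 80392539 to 80399531), a NuRD subunit that binds methylated CpG weakly, stood at 37.6, 33.2 and 34.8 CPM across PHF2 t/g, against 32.9, 29.5 and 33 CPM in the WT libraries. The groups did not overlap, although WT replicate 3 lay just below PHF2 t/g replicate 2, and the log2 fold change was 0.15 (SE 0.11, 95% interval −0.09 to 0.39, edgeR adjusted p = 0.582). The summed level of the 3 MBD genes was 66.6, 56.1 and 58.7 CPM in PHF2 t/g, against 52.3, 42.4 and 53 CPM in WT, with no overlap and no test, since the genes were summed with their values known.

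**Figure D4:**
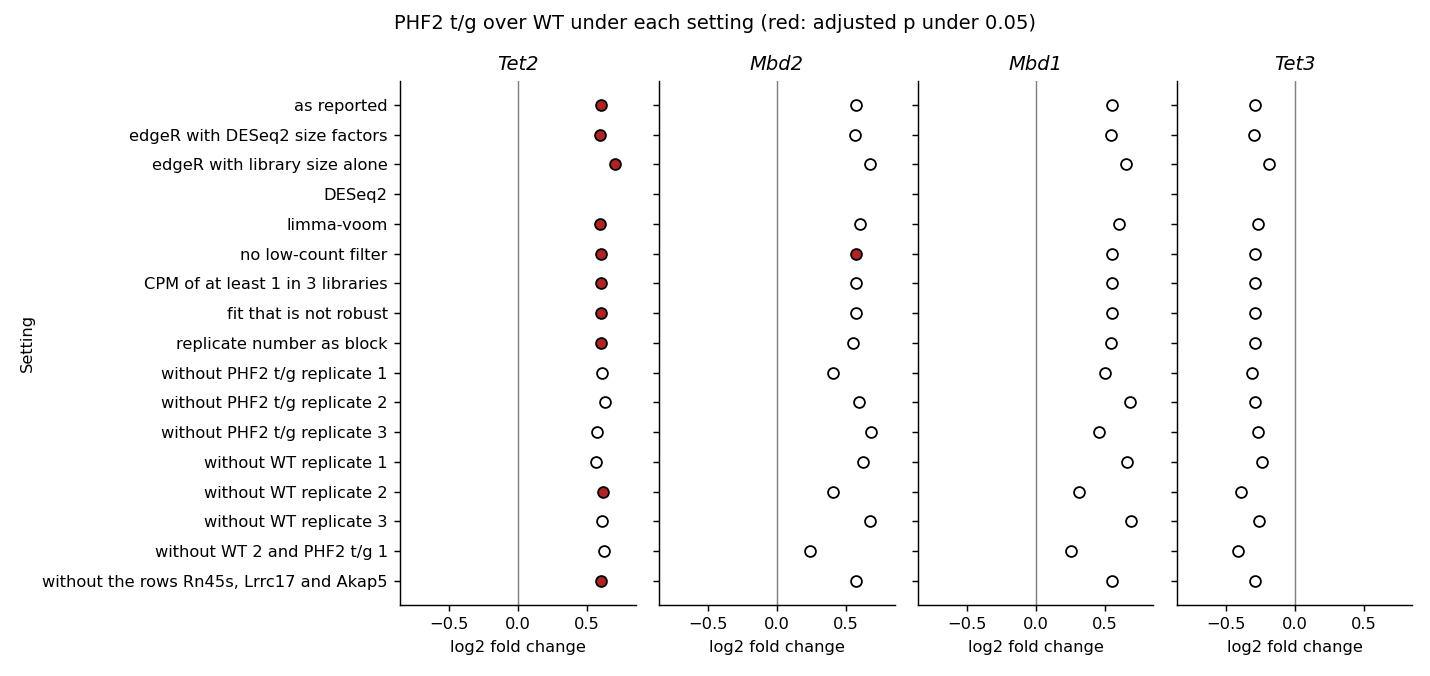
Log2 fold change of PHF2 t/g over WT (x axis) for Tet2, Mbd2, Mbd1 and Tet3 under the reported setting and each alternative (rows); red marks an adjusted p under 0.05. Tet2 stays between 0.56 and 0.70 while its call comes and goes, Mbd2 and Mbd1 shrink to 0.24 and 0.25 without the 2 libraries that stand apart, and the DESeq2 row is empty because DESeq2 gave these genes no adjusted p.

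Among the DNA methyltransferases no difference passed the test. Dnmt1 (chromosome 9, 20907206 to 20959888), the maintenance enzyme, stood at 60, 57.2 and 48.9 CPM across PHF2 t/g, against 55.8, 67.9 and 66.3 CPM in the WT libraries. The groups overlapped through WT replicate 1, and the log2 fold change was −0.19 (SE 0.11, 95% interval −0.42 to 0.04, edgeR adjusted p = 0.431). Dnmt3a (chromosome 12, 3801559 to 3914443), the main de novo enzyme of adult neurons, stood at 69.6, 68.6 and 78.4 CPM across PHF2 t/g, against 69.3, 60.7 and 67.2 CPM in the WT libraries. Its log2 fold change was 0.14 (SE 0.10, 95% interval −0.07 to 0.34, edgeR adjusted p = 0.565). At 293 to 627 counts a library, these were the most precisely measured of the 9 genes, and their intervals lie below the 0.60 of Tet2.

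Dnmt3b (chromosome 2, 153649411 to 153687730), the de novo enzyme best known from early embryos, was below the low-count filter. It had 8, 7 and 3 counts in PHF2 t/g and 3 in each WT library. The scaled ratio of 1.83 had a 95% counting interval of 0.781 to 4.62, so no difference was detectable at this depth. The summed Dnmt level was 128 ± 1.89 CPM in PHF2 t/g, against 130 ± 4.16 CPM in WT (SD, n = 3).

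The wider pathway was described through 6 lists with 92 tested genes. Of these, Lig1 fell, 0 rose and 91 did not pass, against 2.27% called among all tested genes. Lig1, the ligase that joins Okazaki fragments and has a part in drawing UHRF1 to replicating DNA, stood at 40.9, 49 and 40.1 CPM across PHF2 t/g, against 60.7, 62.5 and 67.2 CPM in the WT libraries. Every PHF2 t/g library lay below every WT library, a fall of 1.47-fold (log2 fold change −0.55, SE 0.11, edgeR adjusted p = 0.00901). Lig1 was called under 14 of 16 alternatives. It was not called without PHF2 t/g replicate 1 (log2 fold change −0.51, edgeR adjusted p = 0.127) or replicate 3 (−0.50, edgeR adjusted p = 0.062). In its list of maintenance and targeting partners 9 of 10 tested genes did not pass, and 6 lay above 0 (median log2 fold change 0.05, against 0.02 for all tested genes).

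No gene of the other 5 lists passed edgeR's test, while 15 of the 92 genes, Lig1 included, had an unadjusted p under 0.05, a share near the 14.7% of all tested genes. For each list the gene with the smallest p is named. In the NuRD complex, which carries Mbd2 or Mbd3, the remodeller gene Chd3 stood at 562 ± 25.9 CPM in PHF2 t/g, against 701 ± 68 CPM in WT (SD, n = 3; log2 fold change −0.32, SE 0.08). It missed the threshold with an edgeR adjusted p of 0.0507 and was below it under 5 of 16 alternatives. The other 16 NuRD genes did not pass either, and the list median was 0.08. Among 12 tested genes of base excision repair, through which TET products are removed, Parp1 (log2 fold change 0.26, edgeR adjusted p = 0.24) had the smallest p and the median was 0.10. Among 16 other methyl-CpG and CXXC readers it was Mbd6 (0.36, edgeR adjusted p = 0.302), with a median of −0.05.

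Among 21 genes of the methyl donor and one-carbon cycle, which supplies S-adenosylmethionine, Cbs (cystathionine beta-synthase) stood at 7.77, 7.1 and 7.56 CPM in PHF2 t/g, against 5.33, 4.46 and 3.48 CPM in WT. Its groups did not overlap, and it did not pass (log2 fold change 0.77, SE 0.23, edgeR adjusted p = 0.0927); the list median was 0.06. Among 16 genes of TET cofactors and regulators, Ogt, whose product binds TET proteins, had the smallest p (0.25, edgeR adjusted p = 0.303), and the list median of 0.12 had 14 of 16 genes above 0. The median of all tested genes was 0.02 in the same fit. Leaving out the TMM factors moved that background to 0.12, but the list median was not recomputed there. Whether this list stood above all tested genes was not tested. Cxxc4, which holds the CXXC domain that Tet2 itself lacks, lies 691 kb from Tet2 on chromosome 3 and stood at 22 CPM in PHF2 t/g, against 21.1 CPM in WT (edgeR adjusted p = 0.934).

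**Figure D5:**
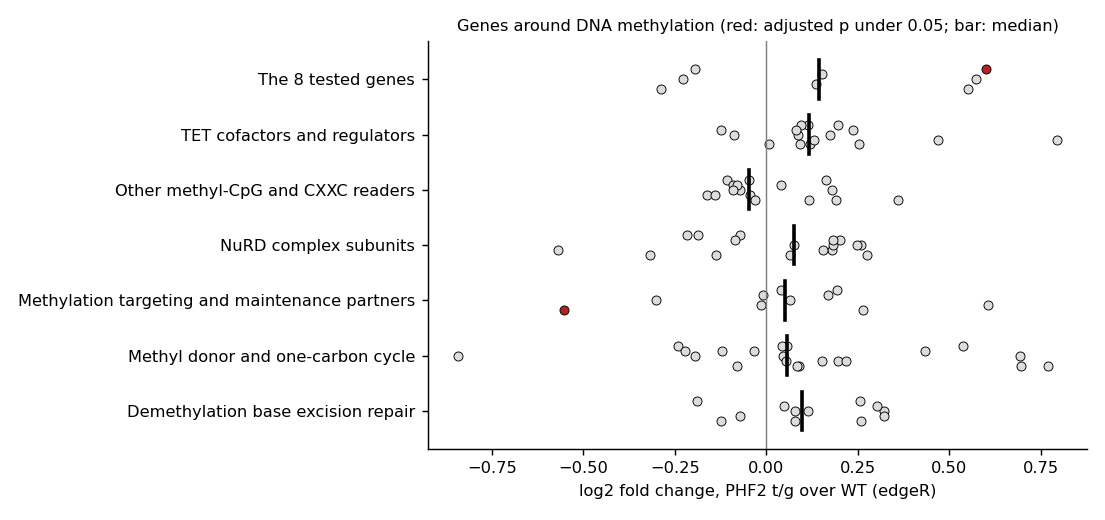
Log2 fold change of PHF2 t/g over WT (x axis) for the 92 tested genes of 6 pathway lists and the 8 tested genes of the Dnmt, Tet and Mbd families, with 1 point per gene and a bar at each median; red marks an adjusted p under 0.05. Lig1 at −0.55 and Tet2 at 0.60 are the red points, and the list medians lie between −0.05 and 0.14.

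For the 3 most abundant genes, the tested genes of closest pattern over the 6 libraries were sought by Pearson's r of log2 CPM. They were Pcsk2, Slc52a3 and Nap1l1 for Dnmt3a (r = 0.992, 0.991 and 0.989), Dhx40, Pias2 and Khk for Dnmt1 (0.986, 0.984 and 0.983) and Tbc1d4, Polr1d and Fam53a for Mbd3 (0.984, 0.98 and 0.977). With 6 libraries that share depth and scaling, 144 to 238 of 12823 genes had an r over 0.9 with each of these, so such values are a description of these libraries.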

How the data were processed

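RNA was extracted with Trizol and made into QuantSeq libraries, per the labels' protocols. Each deposited file gives 1 library's raw counts by gene symbol, with no normalization; Bowtie2, edgeR and mm10 are named in the submitters' processing notes, and versions, annotation and strand setting were not given in any label or header. Groups and replicate numbers came from the titles. Among the 23282 rows, 44 with a repeated symbol were kept apart.

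Genes passing filterByExpr (12831) were scaled by TMM and tested with edgeR 4.0.16 in R 4.3.3 (glmQLFTest after a robust glmQLFit with a single genotype term, Benjamini-Hochberg adjustment, threshold 0.05); the procedure was tested on simulated data. CPM values use TMM-scaled library sizes, and log2 CPM a prior count of 2. Intervals are 95%; those from counts are exact binomial and cover counting error only. Coordinates and promoters are RefSeq, GRCm38.p6; 3′ ends are from GENCODE M21. Whether counting used strand is unknown, so antisense genes cannot be separated.

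The 9 genes, the lists and the rules were chosen with earlier results of these data known. Named genes are the 9, Phf2, pathway list members past the threshold (up to 4 a list, otherwise the 1 with the smallest p) and the 3 closest patterns of the 3 most abundant genes. Cxxc4, single cell type and tissue markers, and the neighbours in the closing section fall outside this rule and were picked with values known. Oga had no row. Alternatives were a block for the replicate number, each library left out, limma-voom (limma 3.58.1), DESeq2 1.42.0, edgeR scaled by library size alone or by size factors from DESeq2, no robust fit, and, for low counts, either no filter or at least 1 CPM in 3 libraries. Added after seeing the data were fits without the 2 libraries that stand apart (PHF2 t/g replicate 1, WT replicate 2) and without the rows Rn45s, Lrrc17 and Akap5.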

Additional observations from a re-analysis of the deposited data

How the results depend on the processing

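The rise of Tet2 kept its direction under all 15 alternatives that gave an adjusted p and passed the threshold in 9 of them. Over all genes, 291 calls became 162 by limma-voom, 606 without the low-count filter, 149 without the robust fit and 140 without the 2 libraries that stand apart (PHF2 t/g replicate 1 and WT replicate 2), and 49 to 392 with 1 library left out. Of the 9 genes, 1 call became 2 without the low-count filter (Tet2 and Mbd2), 0 with DESeq2, where 3 genes had an adjusted p and 2 an unadjusted p under 0.05 (Tet2 and Mbd2), 0 without these 2, where 2 had an unadjusted p under 0.05, and 0 to 1 with 1 library left out. In the pathway lists, 1 call became 2 with library size alone, with DESeq2, without the low-count filter, with a CPM of at least 1 in 3 libraries and without these 2, and 0 to 2 with 1 library left out. The log2 fold change of Phf2 was −0.0512 without PHF2 t/g replicate 3 and −0.0121 without WT replicate 2, and ran from −0.0512 to 0.0924 with 1 library left out. The cause of these shifts was not tested. Libraries with the same replicate number shared no label beyond it. The correlations of their deviations from the group means were −0.00445, 0.123 and 0.0846, against −0.126 to 0.0671 between different numbers. Replicates 2 and 3 lay above that range and replicate 1 within it, so pairing is not settled. With the replicate number as a block, 299 genes, 1 of the 9 genes and 2 list genes were called. Depth limits Dnmt3b and Tet1 most, at 3 to 8 and 21 to 41 counts a library.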

Other observations

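The neighbourhood of Tet2 was looked at after its rise was seen. Of the 6 tested genes within 1 Mb of Tet2, none passed the edgeR test (0 called, with log2 fold changes of −0.16 to 0.31 and a median of −0.01). The nearest, the inorganic pyrophosphatase gene Ppa2 at 85.4 kb, stood at 84.8 CPM in PHF2 t/g, against 94.3 CPM in WT. Around Mbd2 and Mbd1 on chromosome 18, 0 of 6 and 0 of 13 tested neighbours passed, with medians of 0.14 and 0.05, and Cxxc1, the closest to Mbd1 at 46.1 kb, had a log2 fold change of 0.19. Around Mbd3 on chromosome 10, in a gene-dense stretch, 3 of 87 tested neighbours passed, against 2.27% called among all tested genes (1.49% lower), and nothing particular to this stretch is read from it. All 3 fell: Midn (log2 fold change −0.43, edgeR adjusted p = 0.00981), Cirbp (−0.44, edgeR adjusted p = 0.0121) and Lsm7 (−0.66, edgeR adjusted p = 0.0196). They are named after their values were seen.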
